A study of Mus musculus with 6 samples.

Results

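Aminoacyl-tRNA synthetases attach each amino acid to its matching transfer RNA, so they supply the charged tRNAs that ribosomes read. In animal cells several of them sit in a multisynthetase complex held together by 3 non-catalytic scaffold proteins, and the others work as free enzymes. The enzymes that make serine, asparagine and proline, and the folate enzymes that carry one-carbon units taken from serine, supply part of the amino acids that are charged. When uncharged tRNA accumulates, the kinase GCN2 phosphorylates the initiation factor eIF2, and translation of the transcription factor ATF4 increases. PERK, a kinase of the endoplasmic reticulum, acts on the same factor. Many synthetase, serine and asparagine synthesis genes are known ATF4 targets in mammalian cells.

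The genes described here are 37 in number. They are 20 genes for cytosolic synthetase chains, the 3 scaffold genes, 11 genes of asparagine, serine, one-carbon and proline synthesis, and 3 stress-induced regulators (Sesn2, Ddit4 and Nupr1). They were chosen by name with earlier results of these data known. The deposited gene identifiers were matched to GENCODE M21 symbols. All 37 were found among 55401 rows of the count table, and all 37 passed the low-count filter that left 12972 genes for testing. The lowest count of any of them in any library was 107 reads.

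Bulk RNA sequencing compared RAW264.7 cells given molybdenum disulfide (MoS2, a layered metal sulfide) at 6.25 µg/ml with the same cells given phosphate-buffered saline (PBS). RAW264.7 is a mouse macrophage-like line, labelled wild type (WT) in both groups. Each group had 3 libraries, and the labels do not give the duration of treatment. Whether replicates came from separate cultures is not stated either, and p-values therefore reflect the spread between these libraries alone, which may be technical.

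Total counts were 15767618 to 18412762 per MoS2 library and 17008020 to 17695883 per PBS library. Of 10 macrophage markers, 9 averaged at least 1 CPM (counts scaled by library size), and their summed level was 5196 to 5450 CPM with MoS2 and 7657 to 7837 CPM with PBS. The markers did not move together. Cd68 averaged 1304 ± 25.5 CPM with MoS2 and 614 ± 43.7 CPM with PBS, and Itgam averaged 123 ± 3.77 CPM with MoS2 and 44.2 ± 2.94 CPM with PBS (SD, n = 3 each). Csf1r averaged 513 ± 15.1 CPM with MoS2 and 1909 ± 64.6 CPM with PBS, and Lyz2 averaged 1977 ± 67.0 CPM with MoS2 and 3624 ± 142 CPM with PBS. Lists for fibroblasts, epithelium, B cells, endothelium, neutrophils and erythroid cells each summed to under 1 CPM in every library. A T cell list summed to 9.18 to 11.7 CPM with MoS2 and 5.39 to 6.63 CPM with PBS. Lck alone of its members averaged 1 CPM or more, and Cd3d and Cd8a were at 0 in all libraries. The part of these marker levels in the results was not tested. For any gene in bulk RNA, fewer cells of a type and less RNA per cell cannot be told apart.

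The scaling between libraries sets the direction of many of these genes. The 20 most abundant genes of each library held 23.1% to 23.8% of its counts with MoS2 and 7.61% to 7.98% with PBS. TMM factors, which scale libraries by their typical gene, were 0.743 to 0.783 in MoS2 libraries and 1.30 to 1.31 in PBS libraries. Scaling by library totals alone moved the median log2 fold change over all genes by −0.77. Levels above and below are TMM-scaled CPM, and fold changes are log2 of MoS2 over PBS, where a value of 1 is a 2-fold difference. The value after ± beside a fold change is its standard error (SE). The value with library totals is given beside each one that depends on it.

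With TMM scaling, 26 of the 37 genes rose with MoS2, 6 fell and 5 were not called at an adjusted p under 0.05. With library totals, 12 rose, 21 fell and 4 were not called. The background was wide. Of 12972 genes, edgeR's quasi-likelihood test called 38.3% higher and 42.4% lower with TMM scaling (80.7% in either direction), and 18.0% higher and 67.7% lower with library totals (85.7% in either direction). The median log2 fold change of the 37 was 0.56, against −0.08 over all genes tested, and with library totals the medians were −0.21 and −0.85. The libraries of the groups did not overlap for 33 of the 37, with MoS2 above PBS for 26 and below for 7. The other 4 were Mars, Aimp2, Shmt1 and Mthfd1. Over all genes, 38.8% stood above without overlap and 43.1% below. At a log2 fold change of 1 or more stood 12 of the 37 and 19.6% of all genes, while 1 of the 37 and 24.0% of all genes stood at −1 or less.

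Rises called on both scalings were found for 12 genes, which are Kars, Qars, Rars, Aimp1, Eef1e1, Farsb, Sars, Asns, Psph, Mthfd2, Ddit4 and Nupr1. Falls called on both were found for 6, which are Iars, Vars, Pycr1, Sesn2, Shmt2 and Mthfd1l. Over all genes tested, 18.0% were called higher on both scalings and 42.4% lower on both. Library totals moved every gene by about −0.77, and all 5502 genes called lower with TMM scaling were called lower there too. For falls, library totals are therefore no separate check. A further 10 of the 37 rose with TMM scaling and fell with library totals. The summed level of the 37 genes likewise turned with the scaling. With TMM scaling it was 11099, 10992 and 11596 CPM in MoS2 libraries, against 7359.6, 6984 and 6886 CPM in PBS libraries. As a share of all counts, which is scaling by library totals, it was 0.853%, 0.860% and 0.861% in MoS2 libraries, against 0.959%, 0.911% and 0.901% in PBS libraries. The MoS2 libraries thus all lay above PBS with TMM scaling and all below with library totals, and the 20 synthetase genes did the same.

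**Figure D1:**
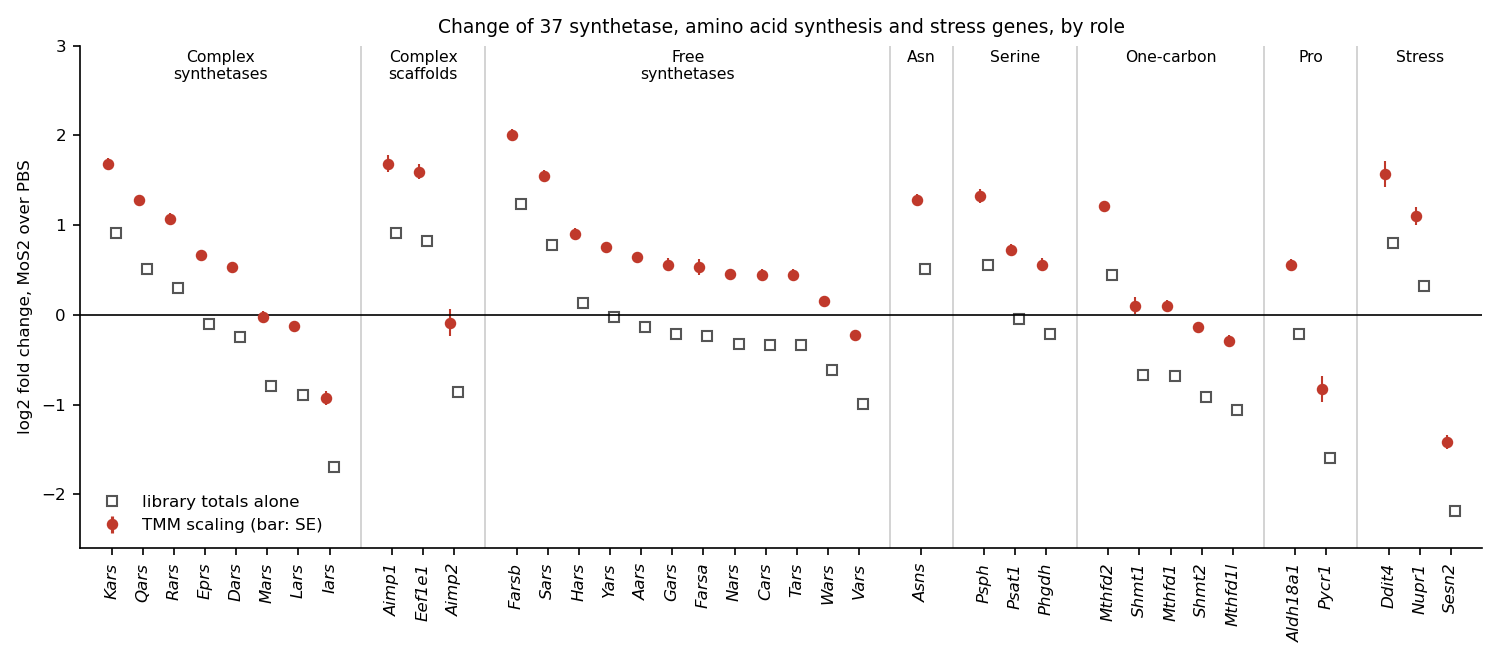
The log2 fold change of MoS2 over PBS is plotted for each of the 37 genes, grouped by role, with TMM scaling (points with SE bars) and with library totals alone. Farsb stood highest at 2.0 and Sesn2 lowest at −1.42 with TMM scaling, and library totals placed every gene about 0.77 lower.

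ATF4 with a C/EBP partner is known to bind a composite element with the core TGATGNAA, so promoters of the 37 genes were searched for it on both strands. Windows ran from 250 bases before to 50 bases after the start of each gene, from RefSeq on GRCm38.p6. Windows were available for 30 of the 37 genes (32 windows, as a gene can have more than 1 start). The letters were found in 8 of the 30 genes, against 3.97% of 32851 windows of the same length over all genes (1304 windows). The first count is of genes and the second of windows. Many genes of these kinds were known ATF4 targets beforehand, so the comparison is no test of the list. The 8 were Iars, Aars, Gars, Tars, Yars, Asns, Pycr1 and Nupr1. The stricter TGATGCAA was present in 6 of the 30 genes and 0.895% of all windows. A match describes letters only. The letters occur in Asns and Nupr1, called higher with MoS2 on both scalings, and also in Iars and Pycr1, called lower on both. Gars, Aars and Tars rose with TMM scaling and fell with library totals. Yars rose with TMM scaling and was not called with library totals. The stretches around each match are shown 5′ to 3′ on the gene's strand with the match in capitals, which is the reverse complement where the letters lie on the opposite strand. The position of the first capital is counted from the gene start. Aars holds another match after its start, which is not shown.
Asns (chr6:7693210-7693262, minus strand, 23 bases before the start): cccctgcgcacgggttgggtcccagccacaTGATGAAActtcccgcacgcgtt
Nupr1 (chr7:126625543-126625610, minus strand, 110 bases before): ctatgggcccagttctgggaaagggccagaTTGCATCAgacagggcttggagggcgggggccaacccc
Pycr1 (chr11:120643814-120643881, minus strand, 103 bases before): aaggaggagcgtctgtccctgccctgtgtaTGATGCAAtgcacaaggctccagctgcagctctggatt
Aars (chr8:111033700-111033767, plus strand, 112 bases before): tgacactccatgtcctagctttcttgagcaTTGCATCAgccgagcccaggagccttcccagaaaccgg
Gars (chr6:55037941-55038000, plus strand, 30 bases before): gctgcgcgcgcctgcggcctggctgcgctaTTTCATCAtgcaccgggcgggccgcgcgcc
Tars (chr15:11399659-11399703, minus strand, 15 bases before): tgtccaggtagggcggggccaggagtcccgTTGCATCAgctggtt
Iars (chr13:49682126-49682155, plus strand, 8 bases after): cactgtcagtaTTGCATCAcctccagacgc
Yars (chr4:129189895-129189924, plus strand, 4 bases after): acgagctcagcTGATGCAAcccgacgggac

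Of the 8 synthetase genes of the multisynthetase complex, 5 rose with TMM scaling, 1 fell and 2 were not called, and with library totals 3 rose and 4 fell. Kars, the lysyl-tRNA synthetase gene (GRCm38 chr8:111993443-112011323, minus strand), rose most on both scalings. It had 298, 288 and 311 CPM in MoS2 libraries, against 95.0, 91.2 and 93.4 CPM in PBS libraries. Every MoS2 library was far above every PBS library, 1.68 ± 0.062 on the log2 scale (edgeR adjusted p = 2.2e-11; 0.91 with library totals). Qars, which encodes the glutaminyl enzyme, had 265, 272 and 277 CPM with MoS2 and 109, 113 and 113 CPM with PBS. Rars, for arginine, had 348, 343 and 371 CPM with MoS2 and 174, 164 and 167 CPM with PBS. Both stood above PBS in every MoS2 library, by 1.28 ± 0.059 for Qars and 1.07 ± 0.061 for Rars on the log2 scale, and they rose with library totals too, by 0.51 and 0.30. Rars adjusted p was 1.5e-09 and Qars adjusted p was 1.7e-10 (edgeR, TMM).

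Iars, the isoleucyl enzyme gene (chr13:49682100-49734267, plus strand), went the other way. It had 133, 140.3 and 123 CPM in MoS2 libraries, against 229, 252 and 271 CPM in PBS libraries. All 3 MoS2 libraries lay below all 3 PBS libraries, −0.93 ± 0.076 on the log2 scale (edgeR adjusted p = 5.7e-08; −1.70 with library totals). It was the only synthetase gene of the 20 called lower under every setting tried.

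The remaining genes of the complex depended on the scaling. Eprs encodes a joined glutamyl and prolyl enzyme and had 667, 681 and 700.2 CPM with MoS2, against 414, 437 and 437 CPM with PBS. Its MoS2 libraries were all higher on TMM-scaled levels, at a log2 fold change of 0.67 ± 0.058, and with library totals it was not called, at −0.11 (edgeR adjusted p = 0.0905). Dars, for aspartate, had 124, 120.0 and 122 CPM with MoS2 and 82.5, 84.3 and 86.3 CPM with PBS. It rose by 0.53 ± 0.061 with TMM scaling and fell, at −0.24, with library totals (edgeR adjusted p = 2.0e-06 and 0.00256).

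Lars and Mars, the leucyl and methionyl enzyme genes, were not called with TMM scaling and were lower with library totals. Lars had 233, 233 and 241 CPM with MoS2, against 266, 253 and 252 CPM with PBS. Its MoS2 libraries were all lower by a margin the test did not call, at −0.12 ± 0.059 (edgeR adjusted p = 0.0655; −0.90 with library totals). Lars was called lower without PBS replicate 3 (−0.15, adjusted p = 0.0459), with upper-quartile factors (−0.25, 0.00158) and with no low-count filter (−0.20, 0.00771). Mars had 168, 167 and 179 CPM with MoS2 and 182, 170.1 and 169 CPM with PBS. Its groups overlapped, at −0.020 ± 0.062 (edgeR adjusted p = 0.772; −0.79 with library totals), and the sign of the TMM value turned without MoS2 replicate 2 (0.0005) or PBS replicate 1 (0.012), uncalled in both. With upper-quartile factors Mars was called lower, at −0.15 (adjusted p = 0.0459). Mars shares 68 bases with Ddit3 on the opposite strand, 2.0% of its exon length, and the strand setting of the counting was not given in the sources used here. Ddit3 had 7338 to 9367 reads with MoS2 and 1093 to 1365 with PBS, so reads from the shared stretch could be counted for either gene.

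Of the 3 scaffold genes, 2 rose on both scalings. Aimp1 encodes the scaffold p43, whose secreted fragment is known as the cytokine EMAPII. It had 162, 159 and 188 CPM in MoS2 libraries, against 59.5, 52.4 and 46.7 CPM in PBS libraries. MoS2 libraries were well above PBS, at 1.68 ± 0.092 (edgeR adjusted p = 9.6e-10; 0.91 with library totals). Eef1e1, which encodes the scaffold p18 or AIMP3, had 70.8, 72.0 and 80.0 CPM with MoS2 and 26.5, 22.4 and 24.9 CPM with PBS. It too was higher in each MoS2 library, at 1.59 ± 0.086 (edgeR adjusted p = 7.8e-10; 0.82 with library totals). Aimp1 shares 163 bases of exon, 2.90% of its length, with Tbck on the opposite strand.

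Aimp2 encodes the scaffold p38, which joins the parts of the complex. It had 16.4, 13.9 and 18.3 CPM with MoS2 and 20.8, 16.8 and 14.2 CPM with PBS. The groups overlapped and the gene was not called with TMM scaling, at −0.087 ± 0.15 (edgeR adjusted p = 0.592), and was lower with library totals, at −0.86. The TMM value turned positive without MoS2 replicate 2 (0.013) or PBS replicate 1 (0.066), uncalled in both, and was called lower at −0.51 once trends on gene length and GC content were removed (edgeR adjusted p = 0.0015). Its exons share 487 bases, 29.4% of their length, with Eif2ak1 on the opposite strand, so its counts are uncertain. Eif2ak1 had 371 to 417 reads with MoS2 and 842 to 872 with PBS.

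Among the 12 synthetase genes outside the complex, 11 rose and 1 fell with TMM scaling, whereas 2 rose and 8 fell with library totals. The 2 that rose on both were Farsb and Sars. Farsb encodes the beta chain of the phenylalanyl enzyme (chr1:78417975-78488897, minus strand). It had 386, 381 and 421 CPM in MoS2 libraries, against 102, 94.7 and 99.98 CPM in PBS libraries. Its MoS2 libraries stood far above PBS, at 2.0 ± 0.066, the largest value of the 37 genes (edgeR adjusted p = 8.6e-12; 1.23 with library totals). Farsb lay at percentile 94.6 of the log2 fold changes of all tested genes. Farsa, which encodes the alpha chain of the same enzyme, had 81.7, 76.5 and 85.5 CPM with MoS2 and 63.9, 53.4 and 51.1 CPM with PBS. Its rise of 0.53 ± 0.088 was smaller and turned into a fall, −0.24, with library totals (edgeR adjusted p = 6.9e-05 and 0.0190). Farsb shares 248 bases of exon with Sgpp2 on the opposite strand, and Sgpp2 had at most 15 reads in any library.

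Sars, the seryl-tRNA synthetase gene (chr3:108424865-108445209, minus strand), had 1661, 1653 and 1769 CPM in MoS2 libraries, against 635, 563 and 540.2 CPM in PBS libraries. Every MoS2 library exceeded every PBS library, at 1.55 ± 0.070 (edgeR adjusted p = 1.5e-10; 0.77 with library totals). Hars, for histidine, had 138, 124 and 139.6 CPM with MoS2 and 74.6, 71.8 and 68.6 CPM with PBS. Hars rose by 0.90 ± 0.070 with TMM scaling (edgeR adjusted p = 3.2e-08) and was not called with library totals, at 0.13 (adjusted p = 0.0935). Its exons share 195 bases, 7.97% of their length, with Hars2, its mitochondrial counterpart, on the opposite strand. Yars, for tyrosine, had 302, 295 and 301 CPM with MoS2 and 184, 174 and 175 CPM with PBS. Yars likewise was higher in each MoS2 library on this scale, at 0.75 ± 0.059, and was not called with library totals, at −0.021 (edgeR adjusted p = 3.5e-08 and 0.735).

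A further 6 free synthetase genes rose with TMM scaling and fell with library totals. Aars, which encodes the alanyl enzyme, had 531, 533 and 534 CPM with MoS2 and 349.9, 340.0 and 336 CPM with PBS, and its log2 fold change was 0.64 ± 0.056 (−0.13 with library totals). Gars, the glycyl enzyme gene, had 465, 468 and 512 CPM with MoS2 and 358, 316 and 306 CPM with PBS, with 0.56 ± 0.072 (−0.21 with library totals). Nars, for asparagine, had 654, 631 and 692 CPM with MoS2 and 512, 459.9 and 475 CPM with PBS, with 0.45 ± 0.064 (−0.32 with library totals). In these 3 genes, and in Cars and Tars, which follow, all MoS2 libraries lay above all PBS libraries on the TMM scale. Cars, for cysteine, had 161, 158 and 167 CPM with MoS2 and 125, 122 and 111 CPM with PBS, with 0.44 ± 0.065 (−0.33 with library totals). Tars, for threonine, had 236, 233 and 253 CPM with MoS2 and 189, 172 and 172 CPM with PBS, with 0.44 ± 0.065 (−0.33 with library totals). Adjusted p for the TMM values of these 5 genes ran from 1.3e-07 for Aars to 2.7e-05 for Tars (edgeR), and all 5 were called lower with library totals. Aars shares 1326 bases of exon, 14.3% of its length, with Exosc6 on the same strand, and Exosc6 had 0 counts in all libraries. How reads from the shared stretch were counted was not given in the sources used here, so the counts of Aars are uncertain.

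Wars, the tryptophanyl enzyme gene, known for its induction by interferon gamma in macrophages, had 198, 197 and 194 CPM with MoS2 and 177, 175 and 178 CPM with PBS. The groups did not overlap but lay close, at 0.15 ± 0.057 (edgeR adjusted p = 0.0245), and Wars was lower with library totals, at −0.62. Its call was lost without MoS2 replicate 1 (0.15, adjusted p = 0.0786) or replicate 2 (0.15, 0.0535) and without PBS replicate 2 (0.14, 0.0927) or replicate 3 (0.14, 0.0661). With no low-count filter its value was 0.072 (0.426) and with upper-quartile factors 0.023 (0.727), uncalled in both.

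Vars, the valyl enzyme gene, had 478, 462 and 472 CPM with MoS2 and 575, 550.0 and 527 CPM with PBS. All MoS2 libraries were lower, at −0.23 ± 0.059 (edgeR adjusted p = 0.00296; −1.0 with library totals). With trends on gene length and GC content removed, Vars was called higher instead, at 0.26 (edgeR adjusted p = 1.9e-04).

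Synthetases fall into 2 unrelated structural classes of catalytic domain. All 10 class II genes (Aars, Dars, Farsa, Farsb, Gars, Hars, Kars, Nars, Sars and Tars) rose with TMM scaling, with log2 fold changes of 0.44 to 2.0 and a median of 0.60. With library totals 3 of these 10 rose and 6 fell. Of the 10 class I genes, 6 rose, 2 fell (Iars and Vars) and 2 were not called (Lars and Mars), with a median of 0.30. With library totals 2 class I genes rose and 6 fell. The difference between the classes was not tested.

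Asns encodes asparagine synthetase, which makes asparagine from aspartate and glutamine (chr6:7675169-7693254, minus strand). Its promoter is one of those that hold the searched letters, as are those of Gars and Aars. Asns had 618, 632 and 644 CPM in MoS2 libraries, against 285, 248 and 249 CPM in PBS libraries. The MoS2 libraries were all well above PBS, at 1.28 ± 0.068 (edgeR adjusted p = 7.0e-10; 0.50 with library totals).

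The 3 enzymes of serine synthesis from 3-phosphoglycerate all rose with TMM scaling, and 1 of them, Psph, rose with library totals. Phgdh encodes the first enzyme (chr3:98313170-98339990, minus strand) and had 822, 812 and 892 CPM with MoS2, against 637, 554 and 524 CPM with PBS. It was higher in each MoS2 library, at 0.56 ± 0.076 with TMM scaling, and lower with library totals, at −0.21 (edgeR adjusted p = 1.1e-05 and 0.0118). Psat1, the aminotransferase of the second step, had 468, 458 and 479.7 CPM with MoS2 and 292, 276 and 282 CPM with PBS. Psat1 rose by 0.73 ± 0.058 with TMM scaling and was not called with library totals, at −0.047 (edgeR adjusted p = 4.7e-08 and 0.436). Psph, the phosphatase of the last step, had 142, 139.5 and 149 CPM with MoS2 and 62.9, 55.2 and 54.1 CPM with PBS. Its MoS2 libraries stood clearly above PBS, at 1.32 ± 0.073 (edgeR adjusted p = 1.0e-09; 0.55 with library totals). Psph exons share 452 bases, 10.4% of their length, with Cct6a on the opposite strand, and Cct6a had 2839 to 3455 reads with MoS2 and 3796 to 4466 with PBS. The counts of Psph are uncertain for that reason.

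Serine is turned into glycine and a folate-bound one-carbon unit by Shmt1 in the cytosol and Shmt2 in mitochondria. Mthfd2 and Mthfd1l then carry the unit through mitochondria to formate, and Mthfd1 handles it in the cytosol. Of these 5 genes, 1 rose, 2 fell and 2 were not called with TMM scaling, and with library totals 1 rose and 4 fell. Mthfd2 (chr6:83305691-83325908, minus strand) had 284, 283 and 291 CPM in MoS2 libraries, against 129.5, 123 and 119 CPM in PBS libraries. It was higher in every MoS2 library, at 1.21 ± 0.061 (edgeR adjusted p = 4.2e-10; 0.44 with library totals). Mthfd1l, the last mitochondrial step, had 73.4, 79.7 and 75.8 CPM with MoS2 and 90.5, 95.6 and 93.2 CPM with PBS. It was lower in every MoS2 library, at −0.29 ± 0.065 (edgeR adjusted p = 0.00106; −1.06 with library totals), and its call was lost with gene length and GC trends removed, at −0.13 (adjusted p = 0.0594). Mthfd1 had 71.2, 70.0 and 66.2 CPM with MoS2 and 67.0, 62.8 and 64.5 CPM with PBS. The Mthfd1 groups overlapped, at 0.093 ± 0.068 (edgeR adjusted p = 0.217; −0.68 with library totals and called), and with length and GC trends removed it was called higher, at 0.27 (adjusted p = 9.5e-04).

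Shmt2 had 469.9, 444 and 477 CPM with MoS2, against 509.8, 527 and 496 CPM with PBS. All MoS2 libraries were slightly lower, at −0.14 ± 0.060 (edgeR adjusted p = 0.0424; −0.91 with library totals). The call was lost without MoS2 replicate 1 (−0.15, adjusted p = 0.0990), replicate 2 (−0.11, 0.174) or replicate 3 (−0.16, 0.0511), without PBS replicate 2 (−0.13, 0.109), and with length and GC trends removed (−0.0089, 0.879), RLE factors (−0.10, 0.146) or a filter of 1 CPM in 3 libraries (−0.13, 0.0503). Shmt1 had 24.3, 23.9 and 20.6 CPM with MoS2 and 21.6, 21.2 and 21.4 CPM with PBS. The groups overlapped, at 0.10 ± 0.096 (edgeR adjusted p = 0.350), and Shmt1 was lower with library totals, at −0.67. Shmt1 shares 184 bases of exon, 4.74% of its length, with Smcr8 on the opposite strand, and its counts are uncertain for that reason.

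The 2 genes of proline synthesis from glutamate moved apart on the TMM scale. Aldh18a1 encodes the enzyme of the first steps and had 223, 225 and 204 CPM with MoS2, against 143, 149 and 152 CPM with PBS. It was higher in each MoS2 library, at 0.56 ± 0.063, and lower with library totals, at −0.22 (edgeR adjusted p = 1.9e-06 and 0.0105). Pycr1, the mitochondrial reductase of the last step (chr11:120635712-120643769, minus strand), had 11.02, 15.1 and 12.1 CPM with MoS2 and 19.7, 21.3 and 26.7 CPM with PBS. Every MoS2 library lay below every PBS library, at −0.83 ± 0.14 (edgeR adjusted p = 1.1e-04; −1.599 with library totals).

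The stress-induced regulators split as well. Sesn2 encodes a leucine sensor that restrains the growth kinase complex mTORC1 (chr4:132492032-132510501, minus strand). It had 19.2, 20.2 and 19.4 CPM in MoS2 libraries, against 53.9, 52.4 and 50.5 CPM in PBS libraries. The MoS2 libraries were far below PBS, at −1.42 ± 0.080, the lowest value of the 37 genes (edgeR adjusted p = 1.2e-09; −2.19 with library totals). Ddit4, also called REDD1, restrains mTORC1 through the TSC complex and had 18.3, 14.3 and 17.2 CPM with MoS2, against 5.59, 6.34 and 4.81 CPM with PBS. Ddit4 was higher in each MoS2 library, at 1.57 ± 0.15 (edgeR adjusted p = 2.6e-07; 0.80 with library totals). Nupr1, a small stress-induced chromatin protein, had 82.5, 75.0 and 97.8 CPM with MoS2 and 39.0, 44.7 and 35.6 CPM with PBS. It too was higher in all MoS2 libraries, at 1.10 ± 0.10 (edgeR adjusted p = 2.9e-07; 0.32 with library totals).

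**Figure D2:**
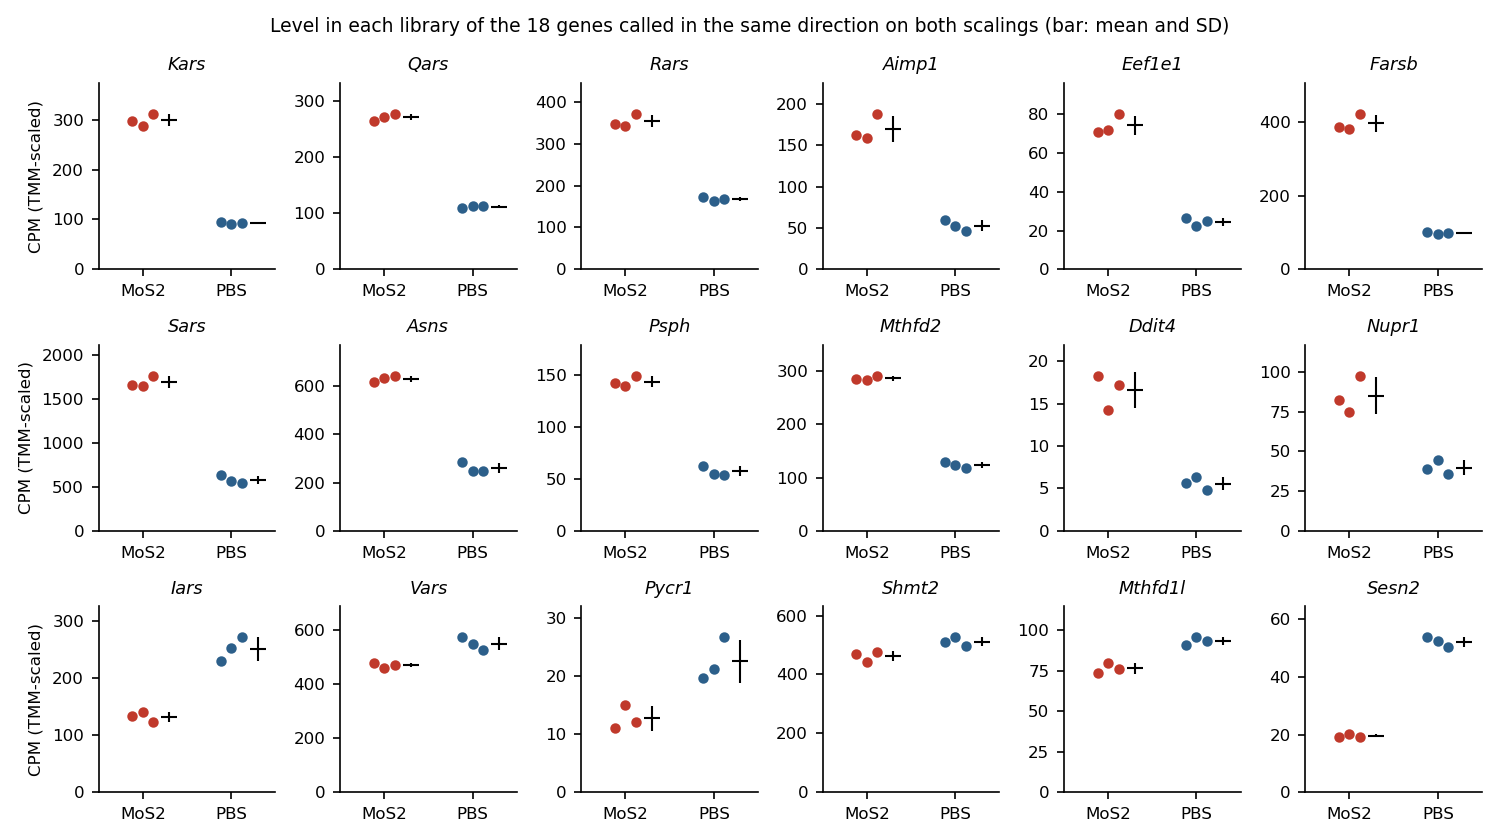
TMM-scaled CPM is plotted for each library (points, 3 with MoS2 and 3 with PBS) with the mean and SD beside them, for the 18 genes called in the same direction on both scalings. The first 12 panels hold genes whose MoS2 libraries all stand above PBS, and the last 6, from Iars to Sesn2, hold genes whose MoS2 libraries all stand below.

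Ratios of 2 genes within the same library do not depend on the scaling between libraries. There were 10 pairs, each compared per exon length with an exact two-sided permutation test of 3 against 3 libraries, whose smallest possible p is 0.1. Farsa over Farsb, the 2 chains of 1 enzyme, was 0.122, 0.116 and 0.117 in MoS2 libraries and 0.363, 0.326 and 0.295 in PBS libraries. The MoS2 ratios were all far lower, a log2 change of −1.46 (exact p = 0.1, 0.111 after Benjamini-Hochberg adjustment over the 10 pairs). Aimp1 over Aimp2 was 2.92, 3.37 and 3.02 in MoS2 libraries and 0.845, 0.921 and 0.972 in PBS libraries. That ratio was higher in all MoS2 libraries, by 1.77 on the log2 scale. Aimp2 shares 29.4% of its exon length with Eif2ak1 on the opposite strand, so the ratio is as uncertain as its counts. Asparagine synthetase over the asparaginyl-tRNA synthetase, Asns over Nars, was 1.505, 1.59 and 1.48 in MoS2 libraries and 0.886, 0.857 and 0.834 in PBS libraries. It was again higher in all MoS2 libraries, by 0.83.

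Within serine synthesis, Psph over Phgdh was 0.0992, 0.0986 and 0.0962 in MoS2 libraries and 0.0567, 0.0572 and 0.0594 in PBS libraries. The ratio of the last enzyme to the first was thus higher in each MoS2 library, by 0.76 on the log2 scale. It is as uncertain as the counts of Psph, which overlaps Cct6a. Psat1 over Phgdh was 0.332, 0.330 and 0.314 in MoS2 libraries and 0.268, 0.291 and 0.314 in PBS libraries, and the groups met at 0.314, with a change of 0.16 (exact p = 0.2). In folate metabolism, Mthfd2 over Mthfd1 was 5.09, 5.16 and 5.61 in MoS2 libraries and 2.46, 2.50 and 2.34 in PBS libraries. MoS2 libraries were higher, by 1.12. Mthfd1l over Mthfd1 was 1.03, 1.14 and 1.15 in MoS2 libraries and 1.35, 1.53 and 1.45 in PBS libraries, lower in all MoS2 libraries by a log2 change of −0.38. Shmt2 over Shmt1 was 24.2, 23.2 and 28.9 in MoS2 libraries and 29.6, 31.0 and 29.0 in PBS libraries. These groups did not overlap but nearly met, with a change of −0.24, and the counts of Shmt1 are uncertain, as stated above.

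The largest change of the 10 was in Sesn2 over Ddit4, which was 0.531, 0.715 and 0.570 in MoS2 libraries and 4.87, 4.17 and 5.31 in PBS libraries. Sesn2 was the more abundant of the pair per length in every PBS library and the less abundant in every MoS2 library, a log2 change of −2.99. Before division by length the ratios in MoS2 libraries were 1.05, 1.415 and 1.13, so the order with MoS2 rests on the lengths used. The log2 change does not depend on them. Pycr1 over Aldh18a1 was 0.0512, 0.0693 and 0.0611 in MoS2 libraries and 0.142, 0.148 and 0.182 in PBS libraries, lower in all MoS2 libraries by a log2 change of −1.38. In 9 of the 10 pairs the groups did not overlap, and each of those had the smallest p that the design allows, 0.1. Among single genes tested, 38.8% stood above and 43.1% below without overlap, so separated groups were common in these data. The share over other gene pairs was not computed. None passed a threshold of 0.05.

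**Figure D3:**
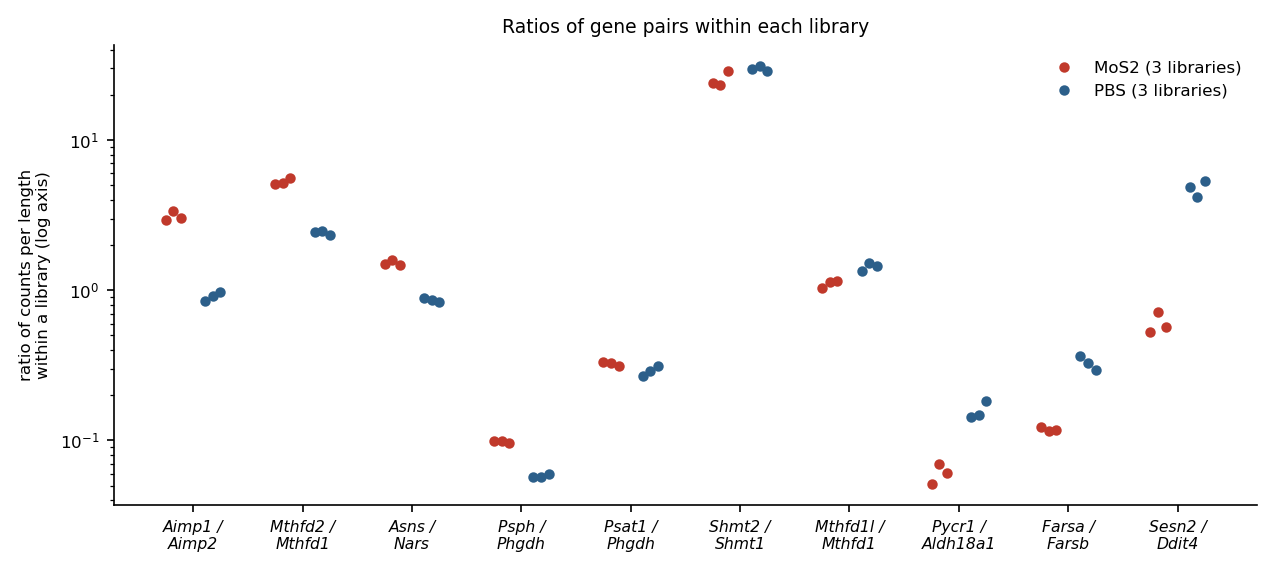
The ratio of 2 genes in the same library, per exon length, is plotted on a log axis for 10 pairs, with the 3 MoS2 libraries beside the 3 PBS libraries. The ratio of Sesn2 to Ddit4 moves most, with MoS2 libraries at 0.531 to 0.715 and PBS libraries at 4.17 to 5.31.

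Levels were ranked between genes after division by exon length (CPM per kilobase, kb). That length takes in all annotated exons of a gene, whichever transcripts the cells make, so ranks depend on the annotation. Eprs, for example, has an exon length of 18102 bases and had rank 22 with MoS2, at a mean of 682 CPM. Phgdh had rank 1 of the 37 in both groups, at 339 ± 17.4 CPM per kb with MoS2 and 229.9 ± 23.6 with PBS (SD, n = 3 each). Sars had rank 2 with MoS2 and rank 3 with PBS, at 329.5 ± 12.6 CPM per kb with MoS2 and 113 ± 9.68 with PBS (SD, n = 3 each). Asns had rank 3 with MoS2 and rank 7 with PBS, at 231 ± 4.66 CPM per kb with MoS2 and 95.3 ± 7.78 with PBS (SD, n = 3 each). Phgdh and Sars differed by less than their spread with MoS2, and by more than it with PBS. Farsb had rank 6 with MoS2, against rank 14 with PBS, at 151 ± 8.44 CPM per kb with MoS2 and 37.7 ± 1.38 with PBS (SD, n = 3 each). Shmt2 had rank 7 with MoS2, against rank 2 with PBS, at 149 ± 5.62 CPM per kb with MoS2 and 164 ± 4.97 with PBS (SD, n = 3 each). Iars had rank 27 with MoS2 and rank 13 with PBS. The lowest per length were Pycr1 with MoS2, at 3.23 CPM per kb, and Ddit4 with PBS, at 3.18 CPM per kb.

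Most mitochondrial synthetases are encoded by separate nuclear genes, whereas Kars and Gars each encode both the cytosolic and the mitochondrial enzyme. Of the 20 cytosolic synthetase genes, with Kars and Gars among them, 16 rose and 2 fell with TMM scaling, whereas of 20 genes for mitochondrial synthetases and the mitochondrial glutaminyl-tRNA amidotransferase, 6 rose and 10 fell. The medians were 0.55 for the cytosolic and −0.26 for the mitochondrial genes. With library totals the cytosolic genes counted 5 rises and 12 falls, and the mitochondrial genes 2 rises and 17 falls. Over all genes tested, 38.3% were higher and 42.4% lower with TMM scaling, with a median of −0.08. With library totals the shares were 18.0% and 67.7%. The mitochondrial counts lay nearer to these shares than the cytosolic counts did with TMM scaling. There were 14 amino acids with 1 cytosolic gene of their own among the 37 and 1 mitochondrial gene in the list. Glutamate, proline and phenylalanine, whose cytosolic enzymes are joined or have 2 chains, were not paired. The cytosolic gene had the higher log2 fold change in 12 of these 14 pairs with TMM scaling. A change of scaling moves both genes of a pair alike, so library totals are no separate check of this count. The pairs that ran the other way were Lars with Lars2 and Iars with Iars2. Some of the 12 gaps were small, at 0.11 for Tars over Tars2 and 0.17 for Wars over Wars2. With gene length and GC trends removed, Tars (0.48) lay below Tars2 (0.53) as well.

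The widest gap in favour of the cytosolic gene was at histidine. Hars stood at 0.90 and Hars2, which had 13.3, 10.5 and 11.3 CPM with MoS2 and 37.7, 36.8 and 37.6 CPM with PBS, at −1.67 ± 0.10 (edgeR adjusted p = 2.7e-09; −2.45 with library totals). Hars2 was thus lower in each MoS2 library while Hars was higher on the TMM scale, and the pair shares exon bases on opposite strands. Pars2, the mitochondrial prolyl enzyme gene, had 0.319, 0.324 and 0.658 CPM with MoS2 and 7.41, 8.21 and 7.77 CPM with PBS. Only 4 to 9 reads per MoS2 library lie behind its level, and its log2 fold change was −4.12 ± 0.27 (edgeR adjusted p = 6.0e-09; −4.89 with library totals). Lars2, for mitochondrial leucine, had 1094, 1111 and 1256 CPM with MoS2 and 217, 268 and 334 CPM with PBS. Its PBS libraries were spread more widely than its MoS2 libraries relative to their mean. Lars2 rose on both scalings, at 2.08 ± 0.12 and 1.30 (edgeR adjusted p = 1.8e-09 with TMM). Cytosolic Lars was not called with TMM scaling and fell with library totals. Lars2 stood far above the rest of its list, where the highest means were 85.6 CPM with MoS2 (Tars2) and 91.8 CPM with PBS (Iars2). Whether all reads counted for Lars2 came from that gene was not tested.

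**Figure D4:**
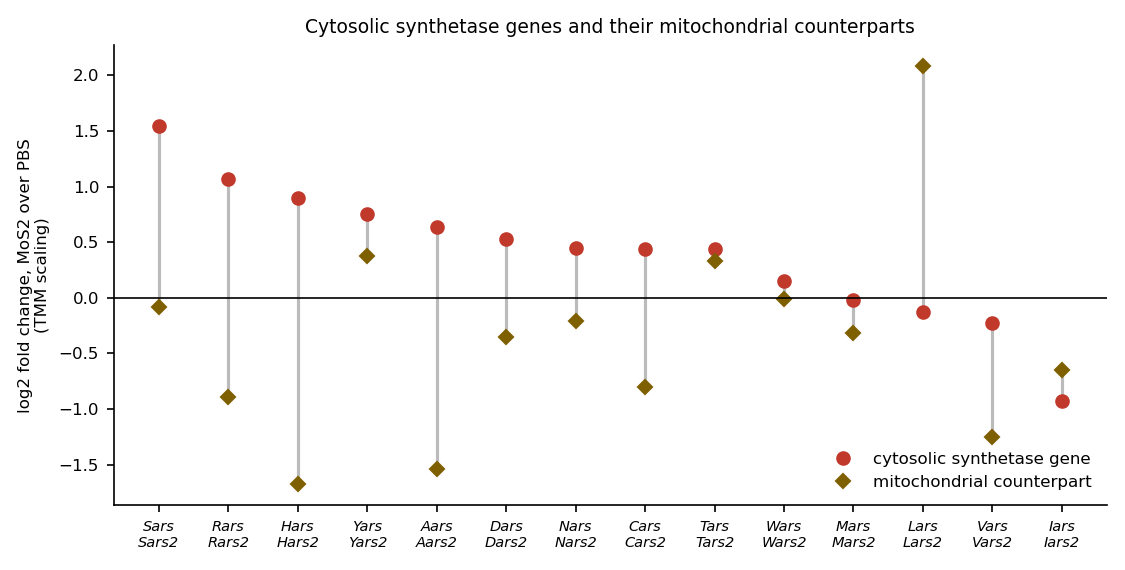
The log2 fold change of MoS2 over PBS (TMM scaling) is plotted for 14 cytosolic synthetase genes (circles), each joined by a line to the mitochondrial gene for the same amino acid (diamonds). In 12 pairs the cytosolic value is the higher, and Lars with Lars2 and Iars with Iars2 are the exceptions.

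Genes of the GCN2, PERK and ATF4 pathway were split. Of 21 tested, 13 rose and 7 fell with TMM scaling (5 and 11 with library totals). Their median was 0.49. Over all genes tested the shares were 38.3% higher and 42.4% lower with TMM scaling, against which the counts of this and each following list are to be read. Atf4 itself had 1345, 1281 and 1425 CPM in MoS2 libraries, against 531, 478 and 449 CPM in PBS libraries. It was higher in every MoS2 library, at 1.47 ± 0.072 (edgeR adjusted p = 3.2e-10; 0.70 with library totals). Its stress targets did not move together. Ddit3, which encodes CHOP, had 623, 595 and 685 CPM with MoS2 and 59.2, 50.4 and 49.1 CPM with PBS, at 3.58 ± 0.087 (edgeR adjusted p = 4.6e-13; 2.81 with library totals). Ppp1r15a, also called GADD34, the subunit that directs dephosphorylation of eIF2, had 357, 342 and 370.1 CPM with MoS2 and 62.0, 58.9 and 51.3 CPM with PBS, at 2.63 ± 0.078 (1.86 with library totals). Both were many times higher in each MoS2 library. Trib3, a pseudokinase, had 47.5, 50.1 and 52.2 CPM with MoS2 and 116, 108 and 102 CPM with PBS, at −1.12 ± 0.073 (edgeR adjusted p = 5.5e-09; −1.90 with library totals). Atf5, a related transcription factor, had 34.7, 35.4 and 32.6 CPM with MoS2 and 139.8, 119 and 120.5 CPM with PBS, at −1.89 ± 0.082 (edgeR adjusted p = 9.5e-11; −2.66 with library totals). Trib3 and Atf5 were lower in every MoS2 library, as Sesn2 and Pycr1 were. Chac1, a glutathione-degrading enzyme gene named here after its values were seen, also fell, at −2.41 ± 0.17 (edgeR adjusted p = 1.4e-08; −3.19 with library totals).

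Upstream of ATF4, the GCN2 gene Eif2ak4 had 53.7, 52.7 and 47.6 CPM with MoS2 and 38.5, 47.0 and 49.1 CPM with PBS. The groups overlapped and it was not called with TMM scaling, at 0.20 ± 0.096 (edgeR adjusted p = 0.0740), and was lower with library totals, at −0.58. It was called higher without MoS2 replicate 3 (0.25, adjusted p = 0.0422) or PBS replicate 3 (0.25, 0.0391). The PERK gene Eif2ak3 had 23.7, 18.1 and 19.1 CPM with MoS2 and 42.6, 43.7 and 41.3 CPM with PBS. It was lower in each MoS2 library, at −1.07 ± 0.10 (edgeR adjusted p = 2.7e-07; −1.84 with library totals). Eif2s1, which encodes the eIF2 subunit that these kinases phosphorylate, had 168, 174 and 173 CPM with MoS2 and 100.2, 95.2 and 105 CPM with PBS. It rose by 0.78 ± 0.063 with TMM scaling and was not called with library totals, at 0.0071. Phosphorylation of eIF2 and the amount of ATF4 protein were not measured.

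Other enzymes that feed the same amino acid pools also moved both ways. Of 24 tested genes of folate, glycine and transsulfuration metabolism, 11 rose and 7 fell with TMM scaling (3 and 15 with library totals). Cth, the cystathionine lyase that makes cysteine, had 67.0, 74.3 and 67.8 CPM with MoS2 and 15.2, 12.8 and 12.5 CPM with PBS. Gcat, which splits a threonine product into glycine, had 8.78, 8.35 and 10.6 CPM with MoS2 and 0.910, 0.565 and 1.39 CPM with PBS. Each was higher in every MoS2 library, Cth at 2.37 ± 0.093 and Gcat at 3.27 ± 0.26 (1.596 and 2.50 with library totals). Dld, a subunit of the glycine cleavage system and of pyruvate dehydrogenase, stood at 0.94 ± 0.067 (0.17 with library totals, called higher on both). Of 17 tested genes for other nonessential amino acids, 10 rose and 3 fell with TMM scaling (3 and 12 with library totals). They included Asl, argininosuccinate lyase, at 1.30 ± 0.071, and Got2, the mitochondrial aspartate aminotransferase, at 1.04 ± 0.060, both higher on both scalings (0.53 and 0.26 with library totals). The cytosolic Got1 stood at 0.88 ± 0.060 with TMM scaling and was not called with library totals, at 0.10. Adjusted p of Cth, Gcat, Dld, Asl, Got2 and Got1 with TMM scaling ran from 4.2e-11 to 4.7e-08 (edgeR).

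Of 21 tested genes of mTORC1 and amino acid sensing, 6 rose and 10 fell with TMM scaling (2 and 18 with library totals). Their median was −0.06, against −0.08 over all genes, of which 38.3% were called higher and 42.4% lower. Eif4ebp1, a translation repressor under mTORC1 and a known ATF4 target, had 579.8, 528 and 588 CPM with MoS2 and 155, 165 and 142 CPM with PBS. It was higher in every MoS2 library, at 1.87 ± 0.072 (edgeR adjusted p = 3.5e-11; 1.10 with library totals). Sesn1, the paralog of Sesn2, had 25.6, 25.4 and 26.0 CPM with MoS2 and 61.7, 63.6 and 63.0 CPM with PBS. Like Sesn2 it was lower in all MoS2 libraries, at −1.29 ± 0.073 (edgeR adjusted p = 1.3e-09; −2.06 with library totals). Deptor, an inhibitor bound to mTOR, had 1.36, 1.46 and 1.90 CPM with MoS2 and 20.3, 25.6 and 24.9 CPM with PBS, at −3.89 ± 0.18 (edgeR adjusted p = 1.4e-10; −4.67 with library totals).

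Charged tRNAs are handed to the ribosome by elongation factor eEF1A, and exportin-t carries new tRNAs out of the nucleus. A list of 13 tested genes held these, other eEF1 subunits, synthetase-like and tRNA-editing proteins, a peptidyl-tRNA hydrolase and enzymes of selenocysteine synthesis, and of the 13 genes 5 rose and 6 fell with TMM scaling (4 and 8 with library totals). Eef1a1, the eEF1A gene, had 21486, 21536 and 22904 CPM with MoS2 and 8663, 8068 and 8161 CPM with PBS. Eef1g, a subunit of its exchange factor, had 2498, 2463 and 2639.7 CPM with MoS2 and 898, 819 and 811 CPM with PBS. Both were higher in every MoS2 library, at 1.41 ± 0.059 and 1.59 ± 0.064 (0.63 and 0.81 with library totals). Xpot, the exportin-t gene, had 87.2, 91.0 and 79.0 CPM with MoS2 and 308, 311 and 329.8 CPM with PBS. Its MoS2 libraries were all far lower, at −1.88 ± 0.070 (edgeR adjusted p = 2.5e-11; −2.65 with library totals). Processed copies of Eef1a1 elsewhere in the genome can share its reads, so its counts are uncertain.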

How the data were processed

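RNA of 6 RAW264.7 samples (3 MoS2, 3 PBS) was extracted with TRIzol and sequenced as paired 150 bp reads, per the labels' protocols. The tools were fastp 0.20.0, featureCounts 1.6.1 and HISAT2 2.1.0, per the submitters' processing notes. The authors deposited whole-number counts per gene, not normalized. The notes name a human build, but all identifiers are mouse genes, and 54349 of 55401 have the same version and coordinates in GENCODE M21, so coordinates are GRCm38. Strand setting and the treatment of multiply mapped reads were not given in the sources used here. Columns were matched by their letter (M for MoS2, c for control) and number.

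The test was edgeR 4.0.16's quasi-likelihood F test (R 4.3.3, limma 3.58.1) with group as its only term and TMM factors. Genes needed about 10 counts in 3 libraries, which left 12972, and the threshold was an adjusted p of 0.05 (Benjamini-Hochberg over all of them). Log2 fold changes use a prior count of 0.125, and their SE is approximate, being the change divided by the square root of F. The script was tested on simulated counts. Scalings, filters, tests, thresholds, a replicate block, length and GC trends and left-out libraries were varied. No shared effect of replicate number was seen: deviations from group means correlated at −0.020, −0.011 and −0.14 between libraries of the same number. Whether samples were paired in the experiment cannot be settled by this check.

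The 37 genes and the other lists were chosen with earlier results of these data known. All 37 genes are named, and of each other list the 3 with the smallest adjusted p, with Atf4, Ddit3, Trib3, Eif2ak4, Eif2ak3 and Eif2s1. No library pair agreed within sampling noise.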

Additional observations from a re-analysis of the deposited data

How the results depend on the processing

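Scaling by library totals alone gave 2334 genes higher and 8786 lower over all genes, and 12 higher and 21 lower among the 37. It turned the sign of Dars (−0.24), Eprs (−0.11), Aars (−0.13), Cars (−0.33), Farsa (−0.24), Gars (−0.21), Nars (−0.32), Tars (−0.33), Wars (−0.62), Yars (−0.021), Phgdh (−0.21), Psat1 (−0.047), Shmt1 (−0.67), Mthfd1 (−0.68), Aldh18a1 (−0.22) and Eif2ak4 (−0.58). Its construction shifts every gene together. A test against a fold of 1.2 left 3 of the 37 lower. Other sign changes were those of Mars with RLE factors (0.021) or length and GC trends removed (0.059), Vars with those trends removed (0.26), and Shmt1 (−0.031) and Mthfd1 (−0.037) with upper-quartile factors, and their cause was not tested. Leaving out 1 library at a time turned the uncalled Mars (−0.0563 to 0.012, with 0.0005 between) and Aimp2 (−0.23 to 0.066, with 0.013 between). It left 25 to 26 of the 37 higher and 5 to 7 lower, and 4843 to 5070 of all genes higher and 5334 to 5564 lower. With the replicate block, 25 and 5 of the 37 and 4848 and 5355 of all genes were called higher and lower, and Wars and Shmt2 lost their calls. No library correlated best with the other library of its own number. DESeq2 1.42.0 made the same 37 calls, and limma-voom added Lars alone. The promoter letters were found in 6 of 30 genes with TGATGCAA, or within the 250 bases before the start (3.45% of all windows), in place of 8.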
